A study of Mus musculus with 6 samples.

Results

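Ribosome biogenesis genes encode the proteins that transcribe, modify and cut ribosomal RNA in the nucleolus and assemble it with ribosomal proteins into subunits. The set held 44 named mouse genes, chosen by name from the pathway with earlier results of these arrays known. Of these, 42 had a row in the deposited signal table under the current or an older symbol, and 39 of the 42 gave a signal above background and were tested, out of 12051 genes tested among 28888 in the table. Fbl, which encodes the RNA methyltransferase fibrillarin, and Ddx18, a nucleolar helicase gene, had no matching row and were not analysed here. The table names its rows in capitals, most by current symbols (NCL, NPM1, HEATR1, WDR43, GRWD1) and some by older ones (NOL5A for Nop56, NOL1 for Nop2).

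RNA came from LT-HSC, the long-term blood-forming stem cells, sorted from the bone marrow (BM) of male C56 Bl/6 mice aged 2 months. The tested arrays were 3 SSA arrays, from cells taken 2 days after sex steroid ablation (SSA), the surgical loss of sex steroids, and the controls were 3 arrays from animals with a sham ablation at the same time. Biotin-labelled RNA was read on Illumina MouseWG-6 V2.0 BeadChips, on which many beads carry the same probe. The labels do not say whether the numbered samples came from separate animals, and a p-value here therefore measures only the scatter of these samples, which could be technical. Every SSA array number in the file comes before every sham array number, so an effect of array order and one of SSA cannot be told apart.

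In a cell, RNA polymerase I copies ribosomal DNA into 1 long precursor, small nucleolar ribonucleoproteins (snoRNPs) guide its chemical modification, and separate sets of assembly factors build the small and the large subunit. Resting stem cells keep protein synthesis low, and the transcription factor Myc is a known activator of many of these genes in growing cells. In bulk RNA, fewer cells with a transcript and less of it per cell cannot be told apart.

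Wdr43, which encodes a small subunit processome factor, was the member that both kept its SSA arrays apart from its sham arrays and carried the Myc E-box CACGTG at its start. Wdr43 was picked by this rule from these same arrays, so it is a description and not a test of a link to Myc. The RefSeq promoter window of Wdr43 (GRCm38.p6, chr17:71615965-71616264, plus strand, 250 bases before to 50 after the start) is shown with that motif in capitals, because it is the one window in which both hold.
Wdr43: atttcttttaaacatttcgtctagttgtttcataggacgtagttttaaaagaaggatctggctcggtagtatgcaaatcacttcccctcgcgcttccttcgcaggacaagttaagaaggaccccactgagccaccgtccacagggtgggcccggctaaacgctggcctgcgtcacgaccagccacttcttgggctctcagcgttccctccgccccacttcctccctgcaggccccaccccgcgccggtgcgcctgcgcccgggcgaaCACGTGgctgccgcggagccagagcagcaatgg

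CACGTG, which reads the same on both strands, was present in the windows of 7 of 40 members with a RefSeq window (17.5%), against 8.09% of the 27025 genes with one. The stretches around the motif in the other 6 members, with up to 10 bases on each side, show that the flanks differ from gene to gene.
Nop2 (chr6:125131813-125131838, plus strand): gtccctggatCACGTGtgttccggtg
Grwd1 (chr7:45830740-45830765, minus strand): gccggagtcgCACGTGtgaaaccgga
Pes1 (chr11:3963967-3963992, plus strand): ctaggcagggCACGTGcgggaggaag
Mybbp1a (chr11:72441357-72441376, plus strand): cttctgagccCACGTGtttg
Tsr1 (chr11:74898094-74898119, plus strand): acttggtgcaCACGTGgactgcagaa
Rrn3, first match (chr16:13780474-13780499, plus strand): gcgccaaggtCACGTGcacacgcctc
Rrn3, second match (chr16:13780641-13780666, plus strand): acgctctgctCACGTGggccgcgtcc
Members with the motif went both ways. Of these 7 genes 4 stood lower in SSA, and their median log2 fold change, SSA minus sham, was -0.22. Of the 29 tested members with a window but no motif 20 stood lower, and their median was -0.091. Both rested on the array sham 2, without which 3 of the 7 stood lower at a median of 0.0067 and 11 of the 29 at a median of 0.065. A match is a description of these letters and not of a bound site.

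One sham array stood apart before any comparison. Pairs of arrays correlated at 0.955 to 0.988 in log2 signal, the lowest being SSA 1 with sham 2, and the first principal component, with 45.9% of the variance, placed sham 2 farthest out at 43.7 while sham 1, at -18.2, lay between SSA 1 at -25.0 and SSA 2 at -10.6. Between 39.4% and 42.3% of rows per array lay above background. Of 11 genes of the HSC sorting gate and of stem cell identity, 10 were above background on at least 3 arrays. Kit, Ly6a and Slamf1 were among them, and so were Cd34 and Cd48. Flt3, whose product marks cells that have left the LT-HSC stage, was below background on all arrays. This list therefore does not show how pure the sort was. Of 6 T and NK cell genes, Cd3e, Cd3g and Cd8a were below background on all arrays, while Lck, Nkg7 and Klrb1c were above it on at least 3. Of 5 macrophage genes, Adgre1, C1qa and C1qb were below background on all arrays and 1, Cd68, was above it on at least 3. Summed signal above background of 5 committed myeloid progenitor genes was 10794 to 12630 on SSA arrays and 13736 to 18301 on sham arrays. For 7 neutrophil and monocyte genes it was 2206 to 5916 on SSA arrays and 4252 to 12126 on sham arrays, for 7 erythroid genes 4483 to 12801 and 9223 to 19796, and for 7 eosinophil, basophil and mast cell genes 1228 to 2021 and 3248 to 5717, with SSA given first. In that last list Prg2, Ear2, Ear6 and Epx were lower in SSA without overlap. Prss34, Mcpt8 and Cpa3 overlapped, at log2 fold changes of -0.24, 0.10 and -0.42. Genes of the HSC gate and identity summed to 9127 to 9955 on SSA arrays and 5562 to 9722 on sham arrays, and 6 T and NK cell genes to 2030 to 2375 on SSA arrays and 2519 to 4454 on sham arrays. The sums are of raw signal before normalisation, so the brightest genes weigh most. In the T and NK list that was Nkg7, at a log2 fold change of -0.51 without overlap. Lck (-0.10) and Klrb1c (0.47) overlapped between the groups. The part of these cell type genes in the results below was not tested.

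No ribosome biogenesis gene passed the test between SSA and sham. In limma with Benjamini-Hochberg adjustment over all genes, the smallest adjusted p of a member was 0.592, and 1 of 12051 genes passed at an adjusted p under 0.05 (0.0083%), the eosinophil ribonuclease gene Ear6 at 0.028, while 1011 genes reached an unadjusted p under 0.05. At that unadjusted level 1 member was lower, Heatr1, against 3.68% of all genes, and 0 members were higher, against 4.71% of all genes. Of the 39 members, 25 stood lower in SSA (64.1%) and 14 higher, against 48.7% of all genes lower. The median log2 fold change, SSA minus sham, was -0.073 for members and 0.0080 for all genes. Fold changes ran from -0.38 to 0.24. The 95% interval of every tested member lay inside a 2-fold change in either direction, as it did for 88.5% of all genes, and the outermost bounds were -0.95 and 0.82 on the log2 scale. For dim members such as Nolc1, Nat10 and Tsr1 the offset understates changes, so their intervals do not bound the change in RNA.

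**Figure D1:**
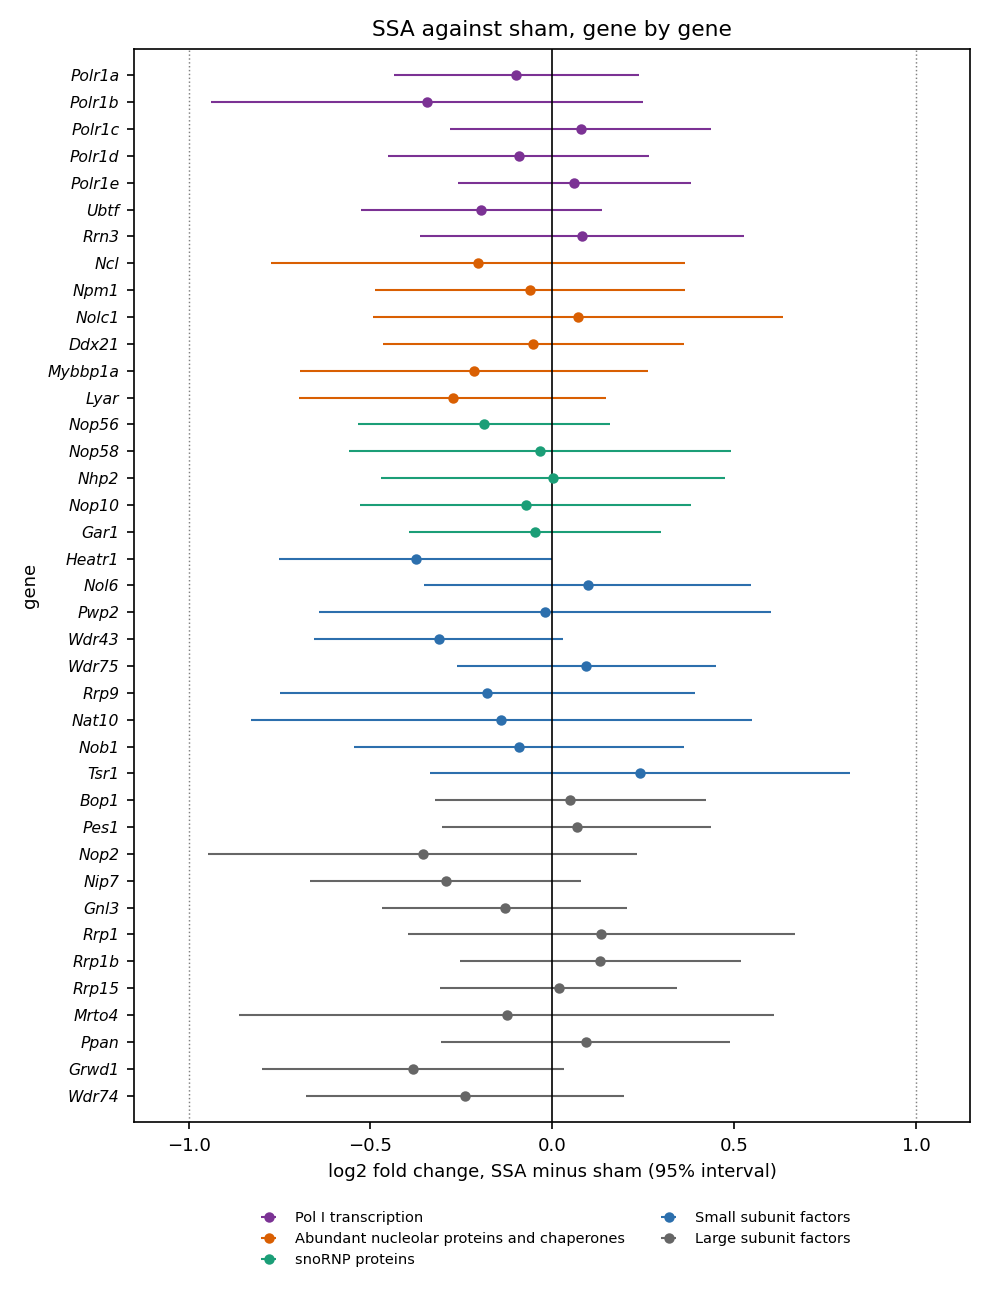
Log2 fold change, SSA minus sham, of the 39 tested ribosome biogenesis genes on the horizontal axis, with 95% intervals from limma over 3 arrays per group, coloured by role; dotted lines mark a 2-fold change. All intervals lie between -0.95 and 0.82, and that of Heatr1 alone ends below 0.

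The excess of lower values was absent without sham 2 and smaller without SSA 1. Sham 2 had the highest signal of all 6 arrays for 24 of the 39 members (61.5%), against 26.6% of all genes, and the lowest for 0 members, against 26.9% of all genes. SSA 1 had the lowest signal for 14 members (35.9%) and sham 1 for 12 (30.8%), each against 15.9% of all genes. The median deviation of the members from their 6-array mean was -0.12, 0.0012 and -0.0073 on SSA arrays 1 to 3, against -0.073, 0.29 and -0.034 on sham arrays 1 to 3. Sham 1 and sham 3 therefore lay among the SSA arrays, and only sham 2 lay above them. Sham 2 also had the highest median for erythroid (1.1), megakaryocyte and platelet (0.695), committed myeloid progenitor (0.532) and eosinophil, basophil and mast cell genes (0.587). It had the lowest for HSC gate and identity genes (-0.295). Neutrophil and monocyte genes were highest on sham 1 (2.02), stromal and endothelial on SSA 1, and B lineage, T and NK and macrophage genes on SSA 3. A link was not tested. Without sham 2, 14 of 39 members stood lower (35.9%) against 48.4% of all genes, and the median log2 fold change was 0.065, of the opposite sign. Without SSA 1, 21 of 39 members stood lower (53.8%) against 48.6% of all genes, and the median was -0.049. With array weights and all 6 arrays kept, 19 of 39 members stood lower (48.7%), against 49.9% of all genes, and the median was 0.0014. With a median shift per array in place of quantile normalisation, 31 of 39 members stood lower, against 59.8% of all genes, and the median was -0.15, against -0.062 over all genes.

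**Figure D2:**
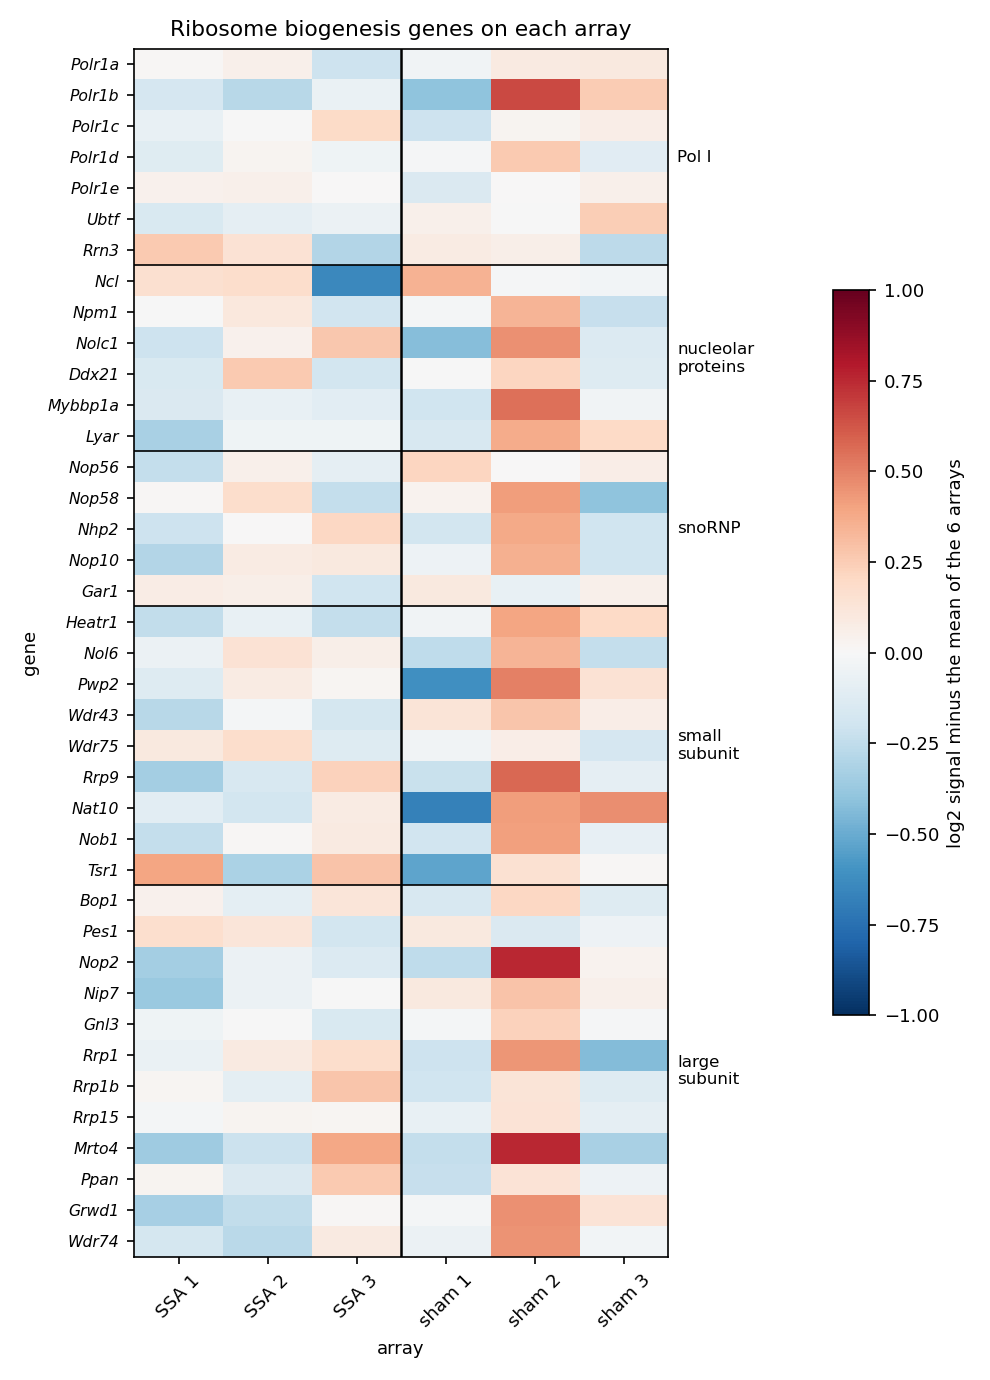
Log2 signal of each tested gene minus its mean over the 6 arrays (colour, from -1 to 1), with SSA arrays left of the black line and sham arrays right of it and genes grouped by role. The column of sham 2 is the highest for 24 of 39 genes.

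Within groups, the members varied about as much as other genes. The median SD over 3 arrays was 0.15 in SSA and 0.22 in sham for members, against 0.19 in SSA and 0.23 in sham for all genes, on the log2 scale. Sham had the larger SD in 26 of 39 members (66.7%), against 61.1% of all genes. Each array read a tested member with 24 to 62 beads, and the standard error over beads was between 2.55% and 8.90% of the raw signal.

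In 4 members all SSA arrays lay below all sham arrays, and in 0 members above, against 6.08% of all genes below and 8.27% above. These were Heatr1 and Wdr43, both small subunit processome genes, Nip7, a factor of large subunit assembly, and Ubtf, which encodes the upstream binding factor that keeps ribosomal DNA open for polymerase I. All 4 stood lower in each of the alternatives in which they could be computed, but none passed in the main test. Leaving out or reweighting arrays cannot turn a gene whose groups do not overlap, so much of this was fixed by the choice. Lower without overlap were 1 member with a median shift, 2 with the detection score filter and 3 with the mean of a gene's rows.

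Small subunit factors included the member of smallest p. Of 9 genes, 6 stood lower and 3 higher, with a median of -0.091. Heatr1, a scaffold of the processome that also promotes polymerase I transcription, had log2 signals of 9.58, 9.76 and 9.59 on the SSA arrays, against 9.80, 10.23 and 10.03 on the sham arrays. The groups did not overlap, with SSA 2 just below sham 1. Heatr1 averaged 9.64 ± 0.099 in SSA and 10.02 ± 0.21 in sham (SD, n = 3 each), a log2 fold change of -0.38 ± 0.16 (SE), with an unadjusted limma p of 0.0496 and an adjusted p of 0.592. Without sham 2 its fold change was -0.27.

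Wdr43, whose promoter is printed above, had 8.11, 8.37 and 8.21 on the SSA arrays, against 8.51, 8.66 and 8.45 on the sham arrays, with no overlap and SSA 2 closest to sham 3. The log2 fold change was -0.31 ± 0.15 (SE) with an adjusted p of 0.592 in limma, and -0.25 without sham 2. The deposited detection score of Wdr43 was low, at 0.505 to 0.809, though its raw signals were 366.6 to 572.8. A filter at a score of 0.95 left it out. Tsr1, which encodes a factor of late small subunit maturation, stood at 6.54, 5.82 and 6.43 on the SSA arrays, against 5.61, 6.30 and 6.15 on the sham arrays. Its groups overlapped, and at 0.24 ± 0.25 (SE) it was the highest fold change of the tested members. The Tsr1 value depended on single arrays and on the background correction, with 0.038 without sham 1, 0.10 without SSA 1, 0.46 without SSA 2, 0.38 without sham 2 and 0.025 with neqc, another background correction. The remaining factors were Nol6 (0.098), Wdr75 (0.094) and Pwp2 (-0.020), Rrp9 of the U3 snoRNP (-0.18), the RNA acetyltransferase gene Nat10 (-0.14) and the nuclease gene Nob1 (-0.091), which cuts the last small subunit precursor.

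**Figure D3:**
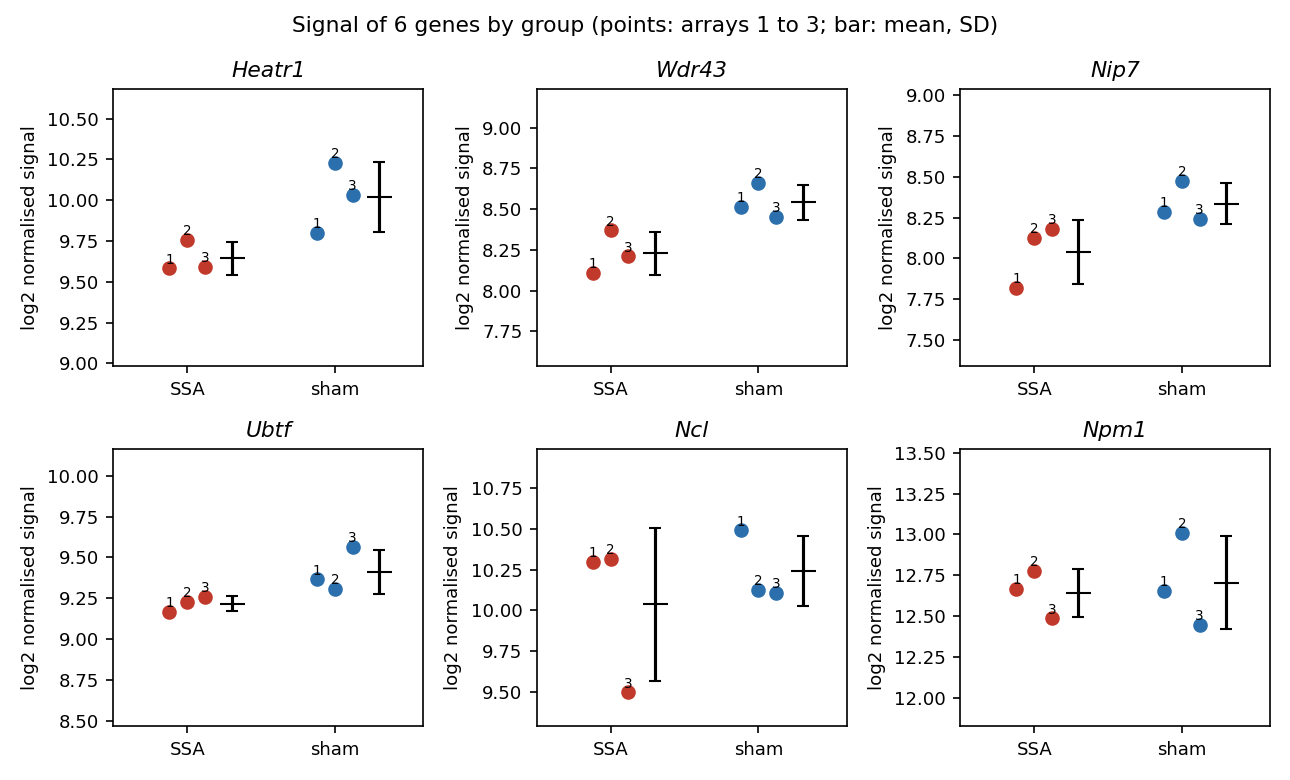
Log2 normalised signal of 4 genes whose SSA arrays all lie below the sham arrays (Heatr1, Wdr43, Nip7, Ubtf) and of Ncl and Npm1, with SSA left of sham; points are arrays, numbered by replicate, and bars give mean and SD of 3 arrays. Ncl and Npm1 overlap between the groups, and the low point of Ncl is SSA 3 at 9.50.

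Large subunit factors were split evenly, with 6 of 12 tested genes lower and 6 higher and a median of -0.054. Grwd1, a histone-binding protein gene whose yeast relative chaperones a ribosomal protein, had 7.99, 8.08 and 8.34 on the SSA arrays, against 8.31, 8.78 and 8.46 on the sham arrays. SSA 3 lay above sham 1, and the log2 fold change was -0.38 ± 0.18 (SE) with an adjusted limma p of 0.592, and -0.25 without sham 2. Nip7 stood at 7.82, 8.13 and 8.18 on the SSA arrays, against 8.28, 8.48 and 8.24 on the sham arrays, a log2 fold change of -0.29 ± 0.16 (SE) at an adjusted limma p of 0.611. The gap between the groups, from SSA 3 to sham 3, was smaller than the spread within either group. Nip7 had detection scores of 0.773 to 0.999 and was also left out by the score filter.

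Nop2, an RNA methyltransferase gene, had 7.34, 7.63 and 7.55 on the SSA arrays, against 7.43, 8.44 and 7.72 on the sham arrays. Sham 2 alone was high, and the log2 fold change of -0.36 ± 0.26 (SE) was -0.068 without it. Bop1 (0.049) and Pes1 (0.067) encode parts of the PeBoW complex, which is needed for processing of large subunit RNA, and did not separate the groups. The remaining part, Wdr12, was below background on all 6 arrays, with raw signals of 125.6 to 144.4. Gnl3, which encodes the nucleolar GTPase nucleostemin known from stem cells, stood at -0.13 ± 0.15 (SE). The others were Wdr74 (-0.24), Mrto4 (-0.13), Rrp1 (0.14), Rrp1b (0.13), Ppan (0.092) and Rrp15 (0.018), and the helicase gene Ddx56 was above background on 1 SSA array and 1 sham array and was not tested.

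Polymerase I genes showed no common direction, with 4 of 7 lower, 3 higher and a median of -0.092. Ubtf had 9.17, 9.23 and 9.26 on the SSA arrays, against 9.36, 9.31 and 9.56 on the sham arrays. The log2 fold change was -0.20 ± 0.14 (SE), at an adjusted limma p of 0.697. This value comes from a row named by an older clone symbol, and the row named UBTF itself stood at -0.44, with raw signals of 354.0, 399.7 and 382.9 on the SSA arrays, against 399.4, 503.4 and 615.9 on the sham arrays. Both rows were lower, and in the second SSA 2 lay at the level of sham 1 on the raw scale.

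Polr1b, the second largest catalytic subunit, had 7.97, 7.87 and 8.08 on the SSA arrays, against 7.74, 8.81 and 8.40 on the sham arrays. Sham 1 lay below every SSA array, and the fold change of -0.34 ± 0.26 (SE) became -0.10 without sham 2. Polr1a, the largest subunit, stood at 9.0, 9.03 and 8.78 on the SSA arrays, against 8.95, 9.07 and 9.08 on the sham arrays, a log2 fold change of -0.099 ± 0.15 (SE). The subunits shared with polymerase III, Polr1c (0.078) and Polr1d (-0.092), the accessory subunit Polr1e (0.061) and the initiation factor gene Rrn3 (0.082), whose product recruits the polymerase, all had overlapping groups. The name POLR1E is also an older name of Polr1c, so that row could hold either gene.

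Abundant nucleolar proteins overlapped between the groups throughout, with 5 of 6 lower and a median of -0.13. Ncl, which encodes nucleolin, a chaperone of nascent ribosomal RNA, had 10.30, 10.31 and 9.50 on the SSA arrays, against 10.49, 10.13 and 10.11 on the sham arrays. Only SSA 3 was low, and Ncl averaged 10.04 ± 0.47 in SSA and 10.24 ± 0.22 in sham (SD, n = 3 each), a difference of -0.20 ± 0.25 (SE). Npm1, which encodes nucleophosmin, a histone and ribosome chaperone, had 12.67, 12.78 and 12.48 on the SSA arrays, against 12.65, 13.01 and 12.45 on the sham arrays. Its log2 fold change of -0.061 had a 95% interval from -0.49 to 0.37, and near-identical copies of the gene make the source of the signal uncertain.

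Lyar, a nucleolar zinc finger gene, had 7.07, 7.34 and 7.35 on the SSA arrays, against 7.23, 7.76 and 7.59 on the sham arrays, a fold change of -0.27 ± 0.18 (SE) on the log2 scale that was -0.16 without sham 2, -0.42 without sham 1 and -0.076 with neqc. Mybbp1a, a regulator of ribosomal RNA transcription and processing, had 9.23, 9.31 and 9.27 on the SSA arrays, against 9.18, 9.93 and 9.35 on the sham arrays. The SSA arrays were close together and sham 2 alone was high, so the fold change of -0.22 was 0.0067 without that array. Ddx21, a helicase that senses both polymerases I and II, stood at -0.051, and Nolc1, a snoRNP chaperone gene, at 0.071. Nolc1 was near background, with raw signals of 144.3 to 164.4 against background limits of 138.4 to 152.5 per array.

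snoRNP proteins did not part the groups, with 4 of 5 tested genes lower and a median of -0.048. Nop56, a core protein of the box C/D class that guides methylation, had 9.69, 9.98 and 9.84 on the SSA arrays, against 10.14, 9.94 and 9.99 on the sham arrays, and stood at -0.19 ± 0.15 (SE). Its partner Nop58 stood at -0.034. Of the box H/ACA proteins, which guide pseudouridylation and also hold telomerase RNA, Nop10 had 10.72, 11.09 and 11.11 on the SSA arrays, against 10.95, 11.37 and 10.81 on the sham arrays. Gar1 had 12.22, 12.20 and 11.95 on the SSA arrays, against 12.24, 12.07 and 12.20 on the sham arrays. Both overlapped, at log2 fold changes of -0.073 and -0.048, and Nhp2 stood at 0.0012. Dkc1, the pseudouridine synthase of this class, was below background on all 6 arrays at raw signals of 120.8 to 142.2, so no fold is given.

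Other ribosome biogenesis genes also showed no call. Of 101 listed genes 81 were tested, 47 of them lower and 34 higher, with a median of -0.039 and 0 past an adjusted p of 0.05 in limma, where 1 was lower and 3 were higher at an unadjusted p under 0.05, against 3.68% and 4.71% of all genes. All SSA arrays lay below all sham arrays in 4 of the 81 and above in 5, against 6.08% and 8.27% of all genes, so these counts lie near or below the shares of all genes. The per-array medians were -0.048, -0.019 and 0.051 on SSA arrays 1 to 3, against -0.11, 0.17 and -0.045 on sham arrays 1 to 3, so sham 2 was again the highest array. Without sham 2, 34 of 81 were lower and the median was 0.048.

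The 4 of smallest p lay on both sides, and none passed. Twistnb, an older name of the polymerase I subunit gene Polr1f, had 8.17, 7.93 and 8.56 on the SSA arrays, against 7.72, 7.12 and 7.04 on the sham arrays. Twistnb averaged 8.22 ± 0.32 in SSA and 7.29 ± 0.37 in sham (SD, n = 3 each), a log2 fold change of 0.93 ± 0.24 (SE) at an adjusted limma p of 0.567. Senp3, a nucleolar SUMO protease gene of large subunit maturation, averaged 9.30 ± 0.10 in SSA and 9.87 ± 0.16 in sham (SD, n = 3 each), at -0.57 ± 0.15 (SE). Rrp8, a nucleolar methyltransferase gene, stood at 0.51 ± 0.22 (SE), and Tcof1, which encodes treacle, a partner of polymerase I, at 0.36 ± 0.15 (SE). In all 4 the groups did not overlap, but they were picked by p from these same arrays. Rrp8 was dim, with log2 signals from 4.9 on sham 3 to 6.1 on SSA 3. Myc itself had 6.07, 6.35 and 6.07 on the SSA arrays, against 6.44, 5.98 and 6.19 on the sham arrays, a log2 fold change of -0.040 ± 0.17 (SE), and was lowest on sham 2. Myc was dim, so the offset understates its change. Of 9 tested genes of the Myc network, Myc among them, 6 stood lower (66.7%), against 48.7% of all genes, with a median of -0.040. Except for Mxd4, these genes were dim as well.

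Genes of S phase and of mitosis followed another order across the arrays. The S phase median was -0.33, -0.15 and -0.19 on SSA arrays 1 to 3, against -0.0067, 0.33 and 0.26 on sham arrays 1 to 3, and the G2/M median was -0.17, -0.23 and -0.40 on SSA arrays, against 0.15, 0.46 and 0.30 on sham arrays. In both lists the SSA and sham arrays did not overlap, and in 9 of 12 S phase genes and 9 of 10 tested G2/M genes (12 listed) all SSA arrays lay below all sham arrays, against 4 of 39 ribosome biogenesis genes and 6.08% of all genes. The lists were chosen with earlier results of these arrays known, so this contrast is a description and not a test. All 3 lists were highest on sham 2, whereas on sham 3 the ribosome biogenesis median stood at -0.034. The immediate-early list was highest on sham 3 (2.18) and sham 2 (1.73) and lowest on SSA 3 (-1.69). The part of these lists in the level of the ribosome biogenesis genes was not tested.

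**Figure D4:**
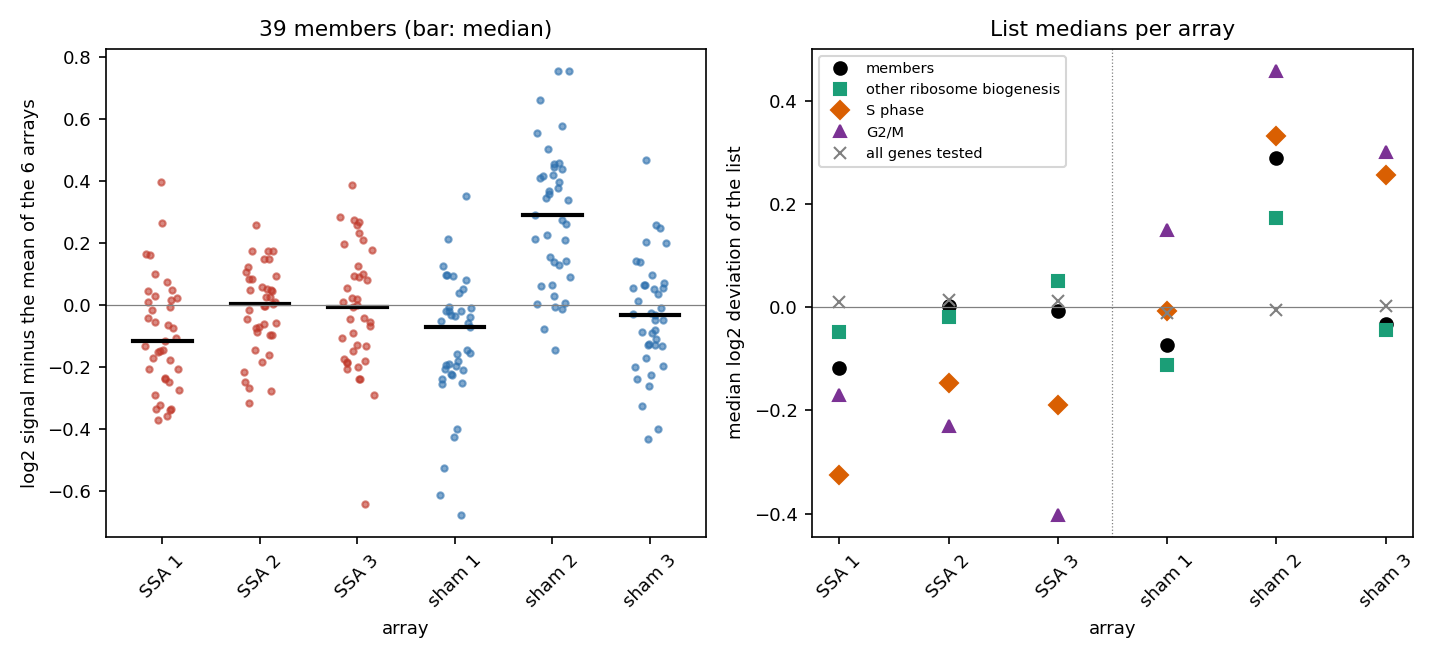
Left, log2 signal minus the 6-array mean of each of 39 ribosome biogenesis genes (points) on each array, with the median as a bar; right, the median deviation per array of these genes, of 81 other ribosome biogenesis genes, of S phase and G2/M genes and of all genes tested, with SSA left of sham. The ribosome biogenesis medians exceed 0.1 only on sham 2, at 0.29 and 0.17. They are lowest on SSA 1 for the 39 genes, at -0.12, and on sham 1 for the 81 others, at -0.11. S phase and G2/M medians are below 0 on all SSA arrays.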

How the data were processed

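The authors deposited linear intensity values per gene name and array, made with GenomeStudio 1.8.0 without normalisation, per the file headers. They also deposited a detection score per row (a fraction from 0 to 1), read here as 1 minus a detection p, and other columns with bead SD and bead number. The series matrix, deposited as intensity, differed from the raw signal by a fixed amount on each array (126.6 to 138.1, within 0.1). Row names were matched to symbols through the RefSeq table of GRCm38.p6 (15991 current, 5826 older, 8838 unmatched of 30774 rows).

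Background mean (126.1 to 137.7) and SD (7.50 to 9.00) per array were read from the detection score against the signal. neqc of limma gave an SD of 194.9 to 302.7 on these rows and was an alternative. normexp, an offset of 16, quantile normalisation and log2 followed. Genes above the 95th percentile of background on at least 3 of 6 arrays were kept, with the brightest row per gene. limma 3.58.1 (R 4.3.3, lmFit, eBayes, group only, two-sided) was also run on simulated data. The changes planted there were larger than that of any member, so the run does not show how well smaller changes are found. Log2 fold changes after the offset understate changes of dim genes. For arrays, their number limits the precision. Members and lists were chosen with earlier results of these data known. Array values were printed for Ncl, Npm1, members whose groups do not overlap and the 3 of smallest p per role.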

Additional observations from a re-analysis of the deposited data

How the results depend on the processing

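The 18 alternatives changed the background correction, offset, normalisation, filter, rows per gene, model or the arrays used. In 15 of 39 members the direction held in each alternative that gave them a value (17 for Polr1b, Lyar, Wdr43 and Nip7, which the detection score filter left out, and 18 for the other 11), and in 24 it turned in at least 1. The changes of filter, the replicate block and the eBayes trend left fold changes as in the main fit, so they could not turn a direction. The mean of rows could do so only for members with several rows. Leaving out 1 array in turn, 35.9% to 79.5% of members were lower, the median ran from -0.13 to 0.065, and members lower without overlap numbered 4 to 12 and higher 0 to 5, where 8.44% to 16.5% and 10.8% to 18.1% of all genes did. Over the same fits 0 to 6 genes passed and 515 to 1996 had an unadjusted p under 0.05, the most without sham 1. Without sham 2 the percent of members lower was 35.9. With a median shift 1 member was lower without overlap, 4 genes passed and 589 had an unadjusted p under 0.05. The detection score filter left 31 members, 2 of them lower without overlap, since rows such as Nop58 score low at high signal. Array weights, which gave sham 3 a weight of 6.85, called 1733 genes, 4035 at an unadjusted p under 0.05, with 2 members, Heatr1 at -0.37 (adjusted p 0.0487, over the alternatives 0.0487 to 0.993) and Grwd1 at -0.40 (0.0456, over the alternatives 0.0456 to 0.993), and 6 other ribosome biogenesis genes, while the members lower numbered 19 of 39 (48.7%) and their median was 0.0014; the cause was not tested. No gene passed (0) with neqc, without background correction or without a filter; without a filter 2059 of 28888 genes had an unadjusted p under 0.05. The labels do not say whether a shared replicate number marks a pair. Same-numbered arrays correlated at 0.395, -0.021 and -0.196 after centring within each group. SSA 1 correlated best with its own number and SSA 2 and SSA 3 did not. With 3 arrays per group these values cannot decide whether the numbers mark pairs. With the replicate block 5 genes passed and no member did.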
